A study of Mus musculus with 14 samples.

Results

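DNA methylation of mammary adipose tissue was compared by the diet the mice were eating when the tissue was taken. The 14 mice were divided by current diet alone: 10 were on a diet with 10% of kilocalories from fat and 4 on a diet with 60%. The 10 low-fat mice came from 3 groups with different histories, 3 CON-LFD, 3 DIO-LFD and 4 DIO-VSG, and the 4 high-fat mice formed the DIO-HFD group. The question was what the 3 low-fat groups shared when set against DIO-HFD. DIO-HFD mice also stayed obese, so current diet and obesity when the tissue was taken cannot be told apart in any comparison here.

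Methylation of the cytosine in a CpG is a covalent mark that is copied when cells divide. In mammals most CpGs outside CpG islands carry it, whereas CpG islands, short stretches dense in CpGs, lie over many promoters and are mostly free of it there. Adipose tissue holds adipocytes, their fibroblast-like precursors, blood vessels, immune cells and, in the mammary pad, epithelial ducts, each with its own pattern, and a level in such a tissue is a mean over all of them. A change within cells and a change in the mix of cells therefore cannot be told apart here.

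All mice were female C57BL/6N (C57BL/6NCrl in the methods), were wild type as labelled and arrived at 8 weeks of age. After 1 week they were put on the 10% fat diet (D12450J) or the 60% fat diet (D12492) for 15 weeks. CON-LFD mice stayed on the 10% diet and were never obese, and DIO-HFD mice stayed on the 60% diet. DIO-LFD mice moved to the 10% diet, and DIO-VSG mice moved to it after vertical sleeve gastrectomy, which removes most of the stomach. The other groups had a sham operation. All mice, the controls included, received E0771 mammary tumor cells in the fourth mammary fat pad 7 weeks after the procedure, and the pad on the other side was taken 4 weeks later. Some labels name the E0771 line although the tissue was the fat pad free of tumor. Reduced-representation bisulfite sequencing (RRBS) reads bisulfite-converted DNA near the cut sites of MspI, which recognizes CCGG, and gives at each cytosine the share of reads that were methylated. This share is called the level below and is given in percent. A total of 75761 sites were listed in every mouse, and 65610 had a standard deviation of at least 0.05 (as a fraction) over the 14 mice and were tested. Read counts per site were not analysed here, and the number of reads behind a level is therefore unknown.

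DIO-HFD replicate 1 stood apart from the rest of its group. Between 2 mice, the root mean square difference over the tested sites was 9.60 to 10.1 percentage points among DIO-HFD replicates 2 to 4, and 17.7 to 18.8 between each of these and replicate 1. Replicate 1 lay 9.16 to 13.9 points from the low-fat mice, which lay 8.45 to 13.7 from each other. Its mean level was higher than that of any other mouse. The labels give no batch, and whether this mouse ate, weighed or was handled as its group did cannot be read from the files. The comparisons of means, regions, counts and gene lists are therefore given with and without it, and single sites and windows with its own level or with group means.

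Several short stretches of sequence around sites that separated the diets are shown first. They are the plus strand of GRCm38 (mm10), with the named CpG, or in Tnfaip2 those that separated the diets, in capitals. CpGs in lower case may also have been measured. Of the sites at which all 10 low-fat mice lay above all 4 DIO-HFD mice, the 4 with the smallest p are these, each 62 bases long. They were found at chr8:121653416-121653477, chrX:117061370-117061431, chr8:70757475-70757536 and chr10:81407332-81407393, in this order, and are named by the gene that the table places nearest.
Zcchc14: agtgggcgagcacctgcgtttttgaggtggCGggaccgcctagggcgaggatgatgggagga
H2afb1: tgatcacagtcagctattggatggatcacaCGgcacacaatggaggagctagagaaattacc
Rab3a: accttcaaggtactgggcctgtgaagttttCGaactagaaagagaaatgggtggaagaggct
Gm16104: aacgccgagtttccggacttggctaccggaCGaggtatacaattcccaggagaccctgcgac

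The H2afb1 and Rab3a windows hold 1 CpG each, the measured one, whereas the Zcchc14 window holds 5 and the Gm16104 window 6. The corresponding 4 sites at which all low-fat mice lay below all DIO-HFD mice were at chr2:116062377-116062438, chr14:109917785-109917846, chrX:150748746-150748807 and chr11:18779832-18779893.
Meis2: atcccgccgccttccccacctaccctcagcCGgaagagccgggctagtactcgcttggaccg
Gm24369: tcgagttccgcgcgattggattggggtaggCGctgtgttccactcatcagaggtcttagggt
Gm24907: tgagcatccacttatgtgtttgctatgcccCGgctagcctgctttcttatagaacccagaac
Gm23021: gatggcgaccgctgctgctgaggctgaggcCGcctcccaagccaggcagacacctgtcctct

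The Meis2 window holds 6 CpGs, and the one in capitals belongs to a CCGG and to a CpG island. The third set comes from a coding exon of Tnfaip2, a gene with several separated sites close together, at all of which the low-fat mice were lower.
Tnfaip2: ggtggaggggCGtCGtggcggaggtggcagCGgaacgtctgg

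The 42 bases of Tnfaip2, at chr12:111445834-111445875, hold 5 CpGs, of which the 3 in capitals separated the diets.

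Mammary adipose DNA was more methylated in the low-fat mice than in 3 of the 4 DIO-HFD mice. The mean level over the 65610 sites had a lowest value of 60.6%, a median of 64.2% and a highest value of 65.2% in the 10 low-fat mice. It was 66.2%, 57.2%, 57.6% and 57.6% in DIO-HFD replicates 1 to 4. All 10 low-fat mice thus lay above replicates 2 to 4 and below replicate 1. Low-fat mice averaged 63.7% ± 1.57 and DIO-HFD mice 59.7% ± 4.38 (SD, n = 10 and n = 4). The difference of 3.98 percentage points gave p = 0.0340 in a two-sided exact permutation test over all splits of the mice. The difference was 6.17 points without replicate 1 (p = 0.00699, the smallest that 10 against 3 allows in this exact test). Without any one of replicates 2 to 4 it was 3.166 to 3.31 points, with p = 0.105 in each exact permutation test, so the call rests on these 3 mice.

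The 3 low-fat groups had similar means, with 63% ± 2.11 in CON-LFD, 63.1% ± 1.93 in DIO-LFD (SD, n = 3 each) and 64.6% ± 0.310 in DIO-VSG (SD, n = 4). The shares of highly and of sparsely methylated sites differed as well. On average 35.9% ± 3.74 of the sites were at 80% or more in the low-fat mice and 27% ± 9.89 in DIO-HFD (exact permutation p = 0.0360), and 8.39% ± 0.555 and 9.96% ± 1.85 were at 20% or less (exact permutation p = 0.050). Without replicate 1 these differences went from 8.94 to 13.9 points and from -1.57 to -2.36 points (exact permutation p = 0.00699 each). All 20 chromosomes measured had a higher mean in the low-fat mice, by 2.40 to 5.09 points, and on the X chromosome alone the difference was 2.66 points. The chromosomes differed by 3.58 to 7.86 points without replicate 1, with 4.11 on the X.

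**Figure D1:**
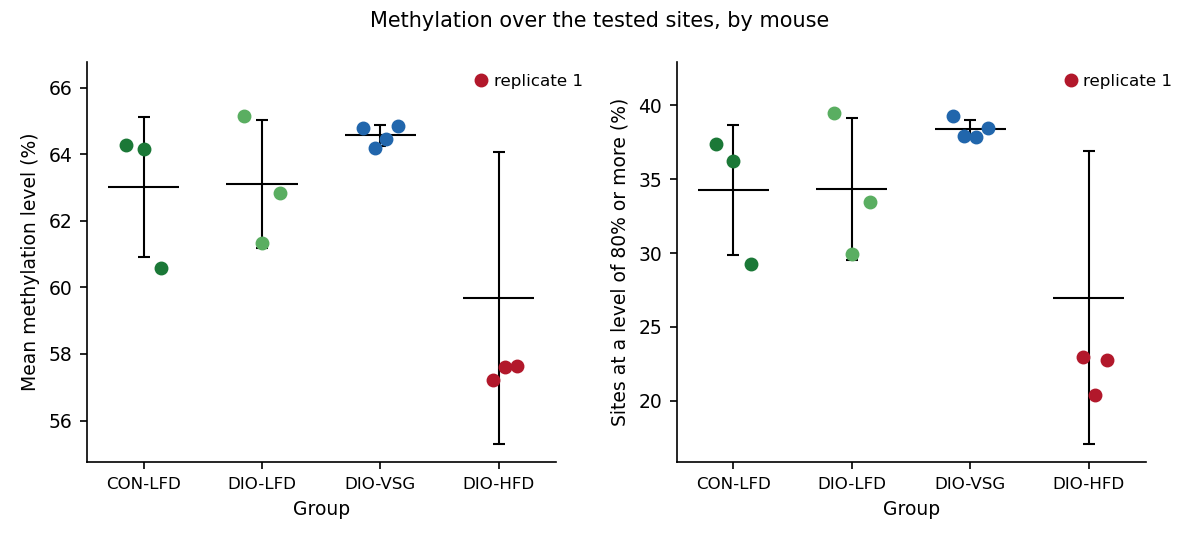
Left, mean methylation level over the tested sites (%) and, right, share of the tested sites at 80% or more (%), with 1 point per mouse, by group; lines are group means and bars are SD. The vertical axes do not start at 0. DIO-HFD replicate 1 (66.2%, left) lies above all low-fat mice, and the other DIO-HFD mice (57.2% to 57.6%) lie below them all.

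The difference was not equally large in all parts of the genome. The tested sites in CpG islands at promoters were at 42.3% ± 0.849 in the low-fat mice and 41.5% ± 2.14 in DIO-HFD, a difference of 0.842 points (exact permutation p = 0.304). Sites that varied little between mice were left out, so class means are not levels of whole islands or other classes. Exons outside islands and promoters differed by 5.32 points (p = 0.0340), introns by 5.25 (p = 0.0280) and sites with none of these flags by 4.11 (p = 0.0240), all by the exact permutation test. After Benjamini-Hochberg adjustment over the 6 classes these 3 exact p were 0.0679, so no class passed. Promoters outside islands differed by 3.746 points and islands outside promoters by 2.77, with exact permutation p of 0.0579 and 0.122.

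Without DIO-HFD replicate 1 the order of the classes was similar, with 1.81 points at promoter islands and 8.09 in exons, and the adjusted exact p were 0.0105 to 0.0210 over the 6 classes. By level, sites with a mean under 20% over all mice differed by -0.101 points, whereas those between 60% and 80% differed by 6.64 (exact permutation p = 0.0300, adjusted over 5 classes 0.0749). Masked repeats and other sequence differed by 3.73 and 4.08 points. CpGs with A or T on both sides differed by 5.67 points, other CpGs by 3.78, and sites within CCGG by 1.87 against 4.85 outside it. Without replicate 1, the differences at mean levels under 20% and from 60% to 80% were 0.211 and 9.98 points, those in repeats and other sequence 5.46 and 6.43, those at CpGs with and without A or T on both sides 8.60 and 5.87, and those within and outside CCGG 3.06 and 7.45. Each mouse's own median level differed by 5.93 points between diets (69.8% and 63.9%), or 9.21 without replicate 1. Measured from that median, all 6 genomic classes were lower in the low-fat mice, with differences between -5.09 points, at promoter islands, and -0.618.

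**Figure D2:**
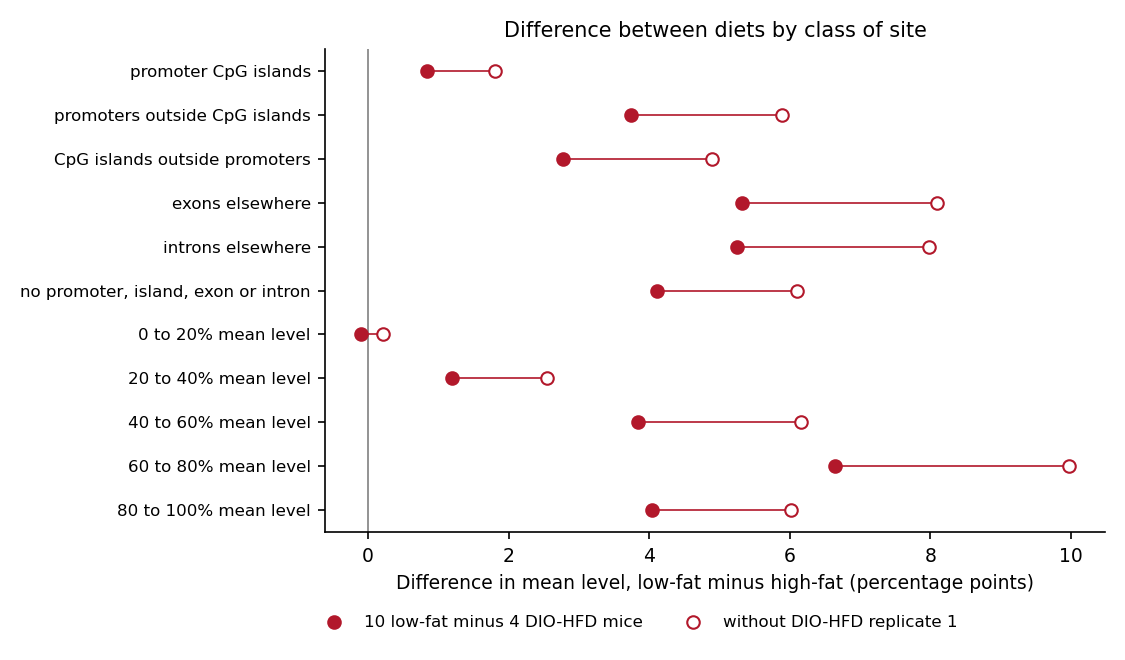
Difference in mean level, low-fat minus high-fat (percentage points), for 6 genomic classes and 5 classes of mean level. Filled points are 10 against 4 mice and open points leave out DIO-HFD replicate 1; the difference is 0.842 at promoter CpG islands and 5.32 in exons with all mice.

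Over all sites together, current diet took up 21.2% of the squared distances between mice (pseudo-F 3.23, exact permutation p = 0.0150). Without DIO-HFD replicate 1 it took up 37.7% (pseudo-F 6.66, exact permutation p = 0.00350, the smallest that 10 against 3 allows here). At single sites few differences passed. In limma, 2 sites had an adjusted p under 0.05, which is 0.00305% of the sites tested, and both were lower in the low-fat mice. The unadjusted p was under 0.05 at 15802 sites (24.1%), of which 12734 were higher (19.4% of those tested) and 3068 lower (4.68%) in the low-fat mice. With each mouse centred on its median there were 12784, split into 6213 higher and 6571 lower. Without replicate 1, 21871 sites (33.3%) passed at an adjusted p under 0.05, and 18347 of these (28.0% of those tested) were higher in the low-fat mice.

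At 407 sites (0.62% of those tested) every low-fat mouse was above, or every one below, the whole DIO-HFD group. The low-fat mice were higher at 304 of these (0.463%) and lower at 103 (0.157%), and after centring 190 and 250 sites separated in these directions. The median difference was 12 points at the former and -11.7 points at the latter, against 4.31 points over all sites. Without replicate 1 the diets separated at 14596 sites (22.2%). At 9772 of these (66.9%) replicate 1 lay within the range of the low-fat mice, at 4417 (30.3%) it lay beyond them, away from its own group, and at 407 (2.79%) it lay with its group. Only these 407 sites separate with all 14 mice.

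Sites higher and lower in all low-fat mice lay in different kinds of sequence. Of the 103 lower sites, 48.5% were in CpG islands and 52.4% in exons, against 10.9% and 27.3% of the 304 higher sites and 21.9% and 28.7% of all sites. Masked repeats held 38.8% of the higher sites, 5.83% of the lower ones and 26.5% of all. Sites with a mean level of 80% or more were 45.4% of the higher, 9.71% of the lower and 32.8% of all sites. These shares describe sites chosen for their separation, and neighbouring sites are not independent. Of the pairs such a site formed with a tested neighbour within 100 bases, 546 of 590 (92.5%) had the same direction for the higher sites and 476 of 488 (97.5%) for the lower ones, against 84.4% over all pairs.

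**Figure D3:**
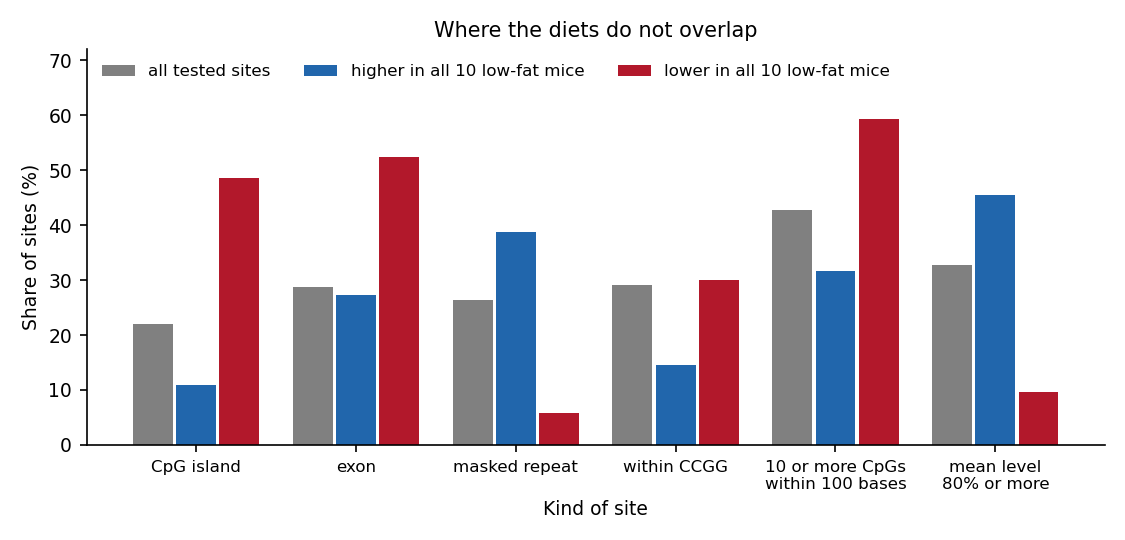
Share of sites (%) in CpG islands, exons, masked repeats, CCGG, CpG-dense sequence (10 or more CpGs with 100 bases on each side) and with a mean level of 80% or more. Grey is all tested sites, blue the 304 sites higher in all 10 low-fat mice and red the 103 lower; islands hold 10.9% of the blue and 48.5% of the red sites.

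The sites with the smallest p in either direction were chosen among those that separated the diets, so that in none of them did the groups overlap. Among those higher in low-fat mice, the Zcchc14 site, upstream of this gene for a zinc finger protein and in a promoter by the table's flags, was at 14.9% to 29.3% in the low-fat mice with a median of 18.4%. It was at 10.8%, 2.48%, 2.50% and 3.03% in DIO-HFD replicates 1 to 4 (adjusted p = 0.0801 in limma, 0.000209 without replicate 1). Replicate 1 lay between its group and the low-fat mice. The site nearest H2afb1, a gene of the histone H2A.B family, lies 46645 bp from its start with no gene over it. It was at 81.6% to 91.6% (median 85.6%) in the low-fat mice and at 66.7%, 70.4%, 65.6% and 67.0% in DIO-HFD (limma adjusted p = 0.110). Here replicate 1 was among its own group.

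The Rab3a site lies 1997 bp past the start of this gene for a small GTPase of vesicle release, in an exon of a GENCODE transcript and an intron by the table. It was at 67.3% to 83.7% (median 77.8%) in the low-fat mice and at 52.9%, 52.1%, 51.6% and 56.3% in DIO-HFD, a difference of 23.2 points (limma adjusted p = 0.129). The 3 low-fat groups had means of 75.1%, 76.5% and 77.4% there. The site nearest Gm16104 lies in an intron of Nfic, which encodes a nuclear factor I transcription factor. It was at 40.9% to 54.6% (median 48.4%) and, in DIO-HFD, at 38.7%, 21.9%, 24.2% and 23.6% (limma adjusted p = 0.129). At this site replicate 1 was closer to the low-fat mice than to its group.

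The other 6 named sites higher in low-fat mice are nearest Mir92b, Tnk2, Sap25, Gprin1, Gm23417 and Gm42943, with differences of 11.5 to 23.1 points and a limma adjusted p of 0.129 each. The Mir92b site, at 77.3% ± 5.02 and 54.2% ± 6.66, lies in an intron of Mtx1 and an untranslated region of Thbs3. By the table's flags it is in a promoter and an exon. Tnk2 encodes a non-receptor tyrosine kinase, and the site in its coding exon was at 91.95% ± 3.127 and 75.7% ± 6.31. The Sap25 site lies in a coding exon of Lrch4. Gprin1 encodes a protein of neurite outgrowth, and its site, in a promoter island, was at 23.4% ± 4.38 in low-fat mice and 9.01% ± 3.98 in DIO-HFD. All SD are over n = 10 and n = 4.

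Both sites with an adjusted p under 0.05 were lower in low-fat mice. Meis2 encodes a homeobox transcription factor of the TALE class. Its site, 2106 bp past the start, in an intron by the table and in an exon of a transcript by GENCODE, was at 0.00% to 3.77% (median 0.00%) in the low-fat mice and at 14.4%, 12.4%, 15% and 11.3% in DIO-HFD. The groups were far apart, all 4 DIO-HFD mice alike. The means were 0.600% ± 1.32 and 13.3% ± 1.73 (SD, n = 10 and n = 4), with a limma adjusted p of 0.0191, which was 0.136 at the most with 1 mouse left out. No other tested site lay within 100 bases.

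The site nearest Gm24369, with no gene over it, was at 84.6% to 97.4% (median 91.3%) in the low-fat mice and at 100% in all 4 DIO-HFD mice (limma adjusted p = 0.0191, up to 0.136 with 1 mouse left out). The single tested site within 100 bases of it differed in the other direction. Since the depth is unknown, a level of 0% or 100% may rest on few reads. The Gm23021 site was likewise at 100% in all DIO-HFD mice and at 71.4% to 96.4% (median 94.4%) in the low-fat mice. Of the 2 tested sites within 100 bases of it, 1 shared its direction. The Gm24907 site, on the X chromosome, was at 78.9% to 95.2% (median 86.3%) against 97.1%, 100%, 100% and 97.6%. Both had a limma adjusted p of 0.0729.

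The other 6 sites lower in low-fat mice are nearest Gm14321, Nrsn1, Pak4, Nfatc1, Npr2 and Mir6919, with differences of -24.8 to -10.2 points and a limma adjusted p of 0.129 each. The largest of these was in an intron of Nfatc1, a transcription factor that calcineurin activates, at 19.0% to 38.9% (median 26.8%) in the low-fat mice and at 50%, 56.9%, 49.1% and 52.9% in DIO-HFD. All DIO-HFD mice, replicate 1 included, lay more than 10 points above the highest low-fat mouse. Npr2 encodes the receptor of C-type natriuretic peptide. Its site, in a promoter island upstream of the start, was at 0.00% to 4.69% (median 0.00%) and at 15.6%, 10.7%, 10.2% and 9.28% in DIO-HFD. The single tested site within 100 bases of the Npr2 site did not share its direction, and of 3 near the Nrsn1 site 1 did. All tested neighbours of the Gm14321, Nfatc1 and Mir6919 sites shared theirs. In an intron of Pak4, a p21-activated kinase, mice averaged 81.4% ± 5.19 (SD, n = 10) and 96.6% ± 5.51 (SD, n = 4). All 20 sites kept their direction in each alternative fit, and all 20 had an adjusted p of at most 0.00377 in limma without replicate 1. Neither is a separate test, since the sites were chosen for their separation and small p. Leaving out a mouse cannot reverse a separated site, and without replicate 1 33.3% of all tested sites had a limma adjusted p under 0.05.

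**Figure D4:**
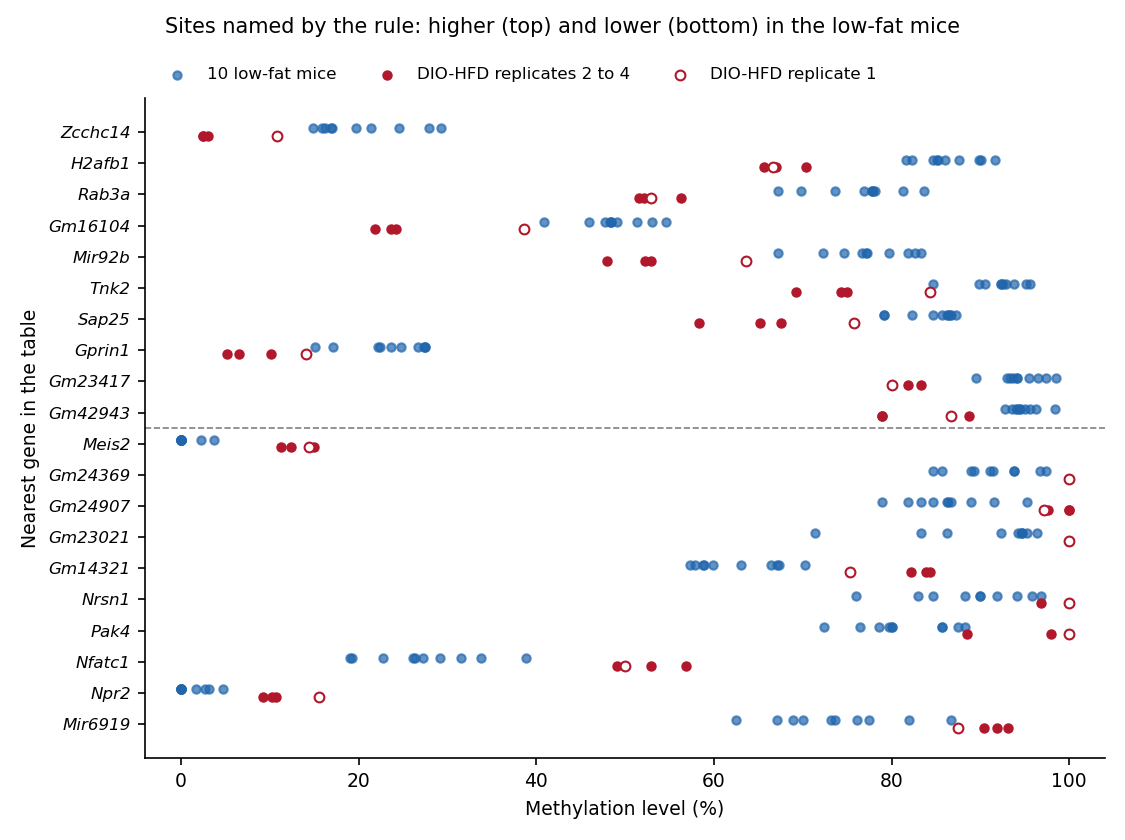
Methylation level (%) of each mouse at the 20 named sites, by the nearest gene in the table. Blue points are the 10 low-fat mice, filled red points DIO-HFD replicates 2 to 4 and the open red point replicate 1; no site has overlapping diets, and at Meis2 the low-fat mice lie at 0.00% to 3.77% and DIO-HFD at 11.3% to 15%.

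Of 354 gene symbols with a separating site, 8 had 3 or more. They are described here without a test, since they were chosen for that count. Egr3, an immediate early gene for a zinc finger transcription factor, had 11, all lower in the low-fat mice. In this gene 47 tested sites lie in a CpG island over its last exon, from coding sequence into the start of the untranslated region. At all 47 the mean was lower in the low-fat mice, by 3.08 to 26.9 points. The mean over these sites was 29.7% to 35.6% (median 31.3%) in the low-fat mice and 34.5%, 44.6%, 51.6% and 51.8% in DIO-HFD replicates 1 to 4. Replicate 1 lay within the low-fat range and the other 3 well above it.

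The separation was clearest in the 71 bases of Egr3 that hold 8 separating sites among 9 tested. Their mean was 32% to 39.2% (median 35.0%) in the low-fat mice and 43.6%, 55.1%, 53.2% and 60.5% in DIO-HFD, and here replicate 1 also lay above every low-fat mouse. CON-LFD, DIO-LFD and DIO-VSG were at 34.6% ± 3.98, 34.6% ± 1.80 and 35.9% ± 1.44 (SD, n = 3, 3 and 4). Over the 57 sites that the table assigns to Egr3, a few of them in introns of other genes, the means were 37.8% ± 1.17 (n = 10) and 48.5% ± 6.24 (n = 4), with a limma adjusted p of 0.128 over all genes and 0.000412 without replicate 1.

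**Figure D5:**
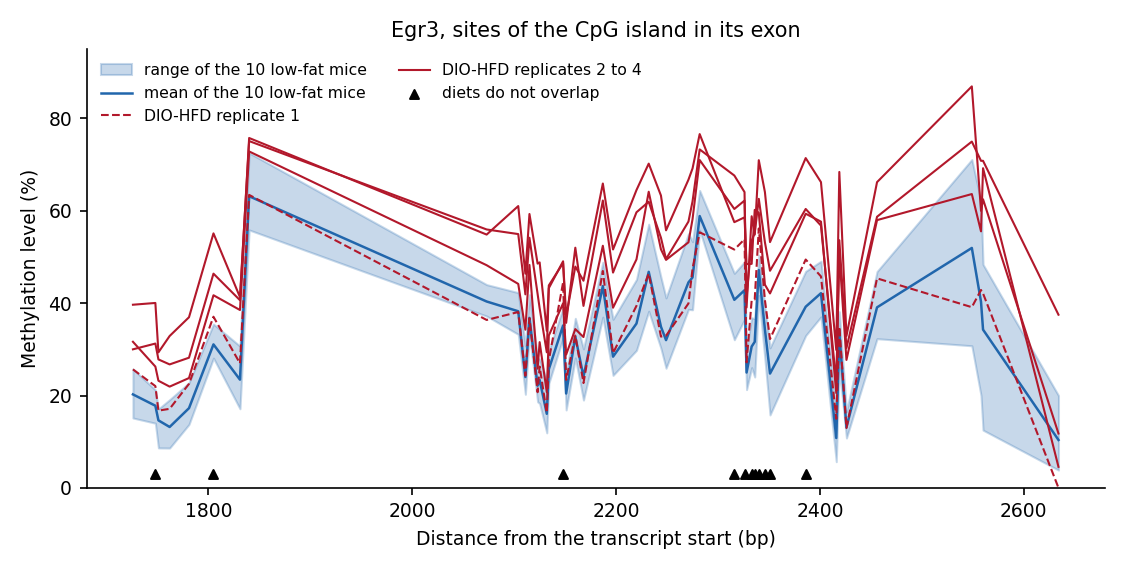
Methylation level (%) along the CpG island in the last exon of Egr3, by distance from the transcript start (bp). The band and blue line are the range and mean of the 10 low-fat mice, red lines are DIO-HFD replicates 2 to 4 and the dashed red line is replicate 1; triangles mark the 11 sites at which the diets do not overlap.

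In 3 other genes the separating sites were all lower in low-fat mice. In Tnfaip2, a gene that TNF induces, the 4 tested sites over 21 bases were at 32.3% to 43.9% (median 39.1%) in the low-fat mice and at 44.6%, 49.3%, 69.0% and 64.6% in DIO-HFD. Replicate 1 was just above the highest low-fat mouse. In Zfp316, a zinc finger gene, 18 tested sites over 146 bases of coding sequence (chr5:143253535-143253680) were all lower in the low-fat mice, with a mean of 16% ± 4.48 against 26.9% ± 3.95, and 5 of them separated. Nearest Mir6919, in Mgat4b for an enzyme that branches N-glycans, 5 sites over 151 bases were at 73.8% ± 3.29 and 87.5% ± 6.30 (SD, n = 10 and n = 4). The region means of Zfp316 and Mir6919 overlapped between diets, since replicate 1, at 22.3% and 78.0%, lay within the low-fat range in both. Without replicate 1 the differences of Tnfaip2, Zfp316 and Mir6919 were -21.6, -12.5 and -16.8 points, against -17.5, -11.0 and -13.7 with it, and those of the Egr3 island and its 71 bases -17.4 and -21.1, against -13.7 and -17.9.

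Another 3 had separating sites that were all higher in low-fat mice. Nearest Gm45353 and in a coding exon of Zfpm1, a cofactor of GATA factors, all 13 tested sites over 160 bases were higher, at 77.5% to 86.9% (median 80.5%) in the low-fat mice and at 75.2%, 66.1%, 65.7% and 71.0% in DIO-HFD. Replicate 1 was the DIO-HFD mouse nearest to them. The 6 sites nearest Mir5621, in a coding exon of Caskin2, were at 76.8% ± 5.09 and 67.1% ± 0.924, and the 15 sites nearest Mir671, over Chpf2 and Smarcd3, at 48.2% ± 2.74 and 41.9% ± 3.41 (SD, n = 10 and n = 4). Both region means overlapped between diets. Nearest Mir5621, CON-LFD replicate 1 was at 67.8% and DIO-HFD replicate 4 at 67.9%. Nearest Mir671, DIO-HFD replicate 1, at 46.8%, lay within the low-fat range. Nearest Gm16333, in Chd5 for a chromatin remodeler, 1 separating site was higher and 2 were lower. The regions of Gm45353, Mir5621, Mir671 and Gm16333 differed by 13.2, 9.83, 7.99 and -10.9 points without replicate 1, against 11.3, 9.67, 6.35 and -7.78 with it.

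Windows of 1000 bp gave no call at an adjusted p under 0.05 (0 of 7676, 0.0%), with 2841 at an unadjusted p under 0.05 (37.0%). The diets did not overlap in 42 windows (0.547%), of which 36 (0.469% of those tested) were higher in low-fat mice. Without DIO-HFD replicate 1, 4263 windows (55.5%) had an adjusted p under 0.05. From the windows that separated, those with the smallest p in each direction were taken, 10 in all. Only 6 separating windows were lower in low-fat mice, and the lower ones taken had an unadjusted limma p of up to 0.00476 (Hsf4). In each of the 10 windows every tested site had the same direction, and each window had a limma adjusted p of 0.0751. The shared direction is not a separate test, since the windows were chosen for their separation.

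The window with the smallest p lies in an intron of Rgs7, a regulator of G protein signaling (chr1:175232001-175233000), and its 4 sites had a mean of 84.0% to 90.7% (median 89.4%) in the low-fat mice and 79.6%, 82.1%, 79.0% and 75.3% in DIO-HFD. In an intron of the kinesin gene Kif26a, 10 sites were at 69.7% to 77.6% (median 74.6%) and at 69.2%, 61.5%, 53.0% and 56.2%. Replicate 1 was near the lowest low-fat mouse here but within its group in Rgs7. The other 3 higher windows lie near Snrpb2, Pgk1-rs7 and Gm14321, outside genes.

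Among the windows lower in low-fat mice, an intron of Nfic was at 23.7% ± 2.44 and 33.7% ± 4.33, a coding exon of the deubiquitinase gene Usp35 at 19.8% ± 2.14 and 30.9% ± 7.41, and a coding exon of Hsf4, a heat shock transcription factor, at 22.0% ± 2.18 and 27.7% ± 2.01 (SD, n = 10 and n = 4). Another lies over Map3k10 and Ttc9b. Nfic thus held a site higher and a window lower in low-fat mice, at different places. Gm14321 was the nearest gene of a lower site (-18.7 points) and of a higher window (11.3 points).

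Per gene, 1 of 8446 (0.0118%) had an adjusted p under 0.05, Gm42655, an unnamed locus with 2 sites that were at 87.5% to 92.5% (median 89.2%) in the low-fat mice and at 79.5%, 77.1%, 81.2% and 81.5% in DIO-HFD (limma adjusted p = 0.0111). Genes with an unadjusted p under 0.05 numbered 2242 (26.5%), 1897 of them higher in low-fat mice (22.5%) and 345 lower (4.08%), and 40 (0.474%) did not overlap between diets. Without DIO-HFD replicate 1, 3068 genes (36.3%) had an adjusted p under 0.05, of which 2729 (32.3% of those tested) were higher in low-fat mice. Of the 40, 3 are named here, after their values were seen. Ogdh, a subunit of the 2-oxoglutarate dehydrogenase complex of the citric acid cycle, had 1 site, at 0.00% to 36.4% (median 0.00%) in the low-fat mice and at 52.1%, 51.4%, 41.9% and 37.5% in DIO-HFD. Abcg8, which forms a sterol exporter with Abcg5, had 1 site at 60.1% to 72.2% (median 67.0%) and at 60.0%, 57.8%, 49.8% and 50.5%. The 14 sites of Ago2, the slicer of the RNA-induced silencing complex, were at 37.7% ± 0.936 and 42.2% ± 3.95 (SD, n = 10 and n = 4). The limma adjusted p of these 3 genes were 0.135, 0.128 and 0.135.

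The genes of 11 lists were then counted. No member had an adjusted p under 0.05 in limma, and no member's gene-level values were free of overlap between diets. Over all genes these shares were only 0.0118% and 0.474%, so their absence says little about the lists. Only the Wnt list had values for 80% of its genes, and the others for 12.5% to 75%, so the counts describe the measured members and not the lists. They are to be read against all 8446 genes, of which 22.5% were higher and 4.08% lower at an unadjusted p under 0.05, and 32.3% higher and 4.01% lower at an adjusted p under 0.05 without replicate 1. Of 10 measured adipocyte markers, 2 were higher in low-fat mice at an unadjusted p under 0.05 and 0 lower, with a median difference of 1.78 points, against a median of 3.02 over all genes. The share of members higher at that p was near the 22.5% of all genes. Whatever their p, 5 of the 10 were higher in low-fat mice, against 6142 of 8446 over all genes. Prdm16 was among those that were lower, at 41.1% ± 3.09 and 45.1% ± 4.23 (SD, n = 10 and n = 4). Cfd (adipsin) was at 75.4% to 84.4% (median 81.6%) in the low-fat mice and at 82.7%, 65.8%, 68.7% and 68.6% in DIO-HFD. Slc2a4, the insulin-responsive glucose transporter, was at 84.8% ± 3.65 and 73.3% ± 10.2 (SD, n = 10 and n = 4). In both, replicate 1 lay within the low-fat range. The limma adjusted p were 0.135 each with all mice.

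Of 7 measured preadipocyte and fibroblast markers, 3 were higher at an unadjusted p under 0.05 and 0 lower (22.5% and 4.08% over all genes), with a median difference of 8.86 points. Pdgfrb, a receptor of platelet-derived growth factor on mural and stromal cells, was at 66.0% ± 4.38 and 53.7% ± 11.2. Col1a1, a chain of type I collagen, was at 68.7% ± 3.88 and 59.9% ± 9.31, and Thy1 at 40.4% ± 5.48 and 25.9% ± 12 (SD, n = 10 and n = 4). Without replicate 1, 4 of the 7 had a limma adjusted p under 0.05, all higher in low-fat mice (32.3% over all genes), and 3 of the 10 adipocyte markers did, also all higher.

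The markers of other cells in the pad were few. Of 8 lymphocyte markers, 1 was higher and 3 were lower at an unadjusted p under 0.05 (22.5% and 4.08% over all genes; median difference -4.57), with Cd37 at 63.6% ± 9.78 and 44.6% ± 21.4 and Tcf7, a T cell transcription factor, at 55.4% ± 2.80 and 62.4% ± 8.53. Of 9 endothelial markers, 1 was higher and 3 were lower (median -0.0785), with the adhesion molecule Pecam1 at 32.7% ± 9.71 and 17.5% ± 7.02 and von Willebrand factor, Vwf, at 32.6% ± 10.1 and 52.8% ± 25. Of 10 epithelial markers 1 was higher and 1 lower (median 0.773), Cldn3 and the keratin gene Krt8. Of macrophage markers only C1qa and Adgre1 had values, and C1qa was higher at an unadjusted p under 0.05. Without replicate 1, the members with a limma adjusted p under 0.05 were 1 higher and 3 lower for lymphocytes, 2 higher and 1 lower for endothelium, 2 higher and 1 lower for epithelium, and 1 higher and 0 lower for macrophages. The mean over each mouse's measured markers was 57.0% to 70.2% in low-fat and 62.8% to 69.3% in DIO-HFD mice for lymphocytes, 50.02% to 54.4% and 49.5% to 53.2% for endothelium, 54.4% to 62.2% and 56.8% to 60.7% for epithelium, 88.6% to 97.0% and 83.4% to 97.2% for macrophages, 49.4% to 59.7% and 43.1% to 58.5% for preadipocytes and fibroblasts, and 63.2% to 71.3% and 61.2% to 68.9% for adipocytes. All these ranges overlap, but in 3 lists 1 mouse makes the overlap. For lymphocyte markers 9 of 10 low-fat mice, at 62.7% at the most, lay below all 4 DIO-HFD mice. The other, DIO-LFD replicate 2, was at 70.2%. This mean counts each gene once, and the largest difference in the list was that of Ikzf1, with 1 site. Ikzf1 was at 26.7% ± 23.2 and 66.2% ± 20.2 (SD, n = 10 and n = 4), a difference of -39.5 points. DIO-LFD replicate 2 was the highest low-fat mouse there, at 81.8%. The order of the mice without Ikzf1 was not tested, so it cannot be ascribed to the lymphocyte markers as a set. Without DIO-HFD replicate 1 the DIO-HFD range was 43.1% to 46.2% for preadipocytes and fibroblasts and 83.4% to 85.7% for macrophages, below all 10 low-fat mice. This is not particular to these cells. The mean over all tested sites separated in the same way (57.2% to 57.6% against 60.6% to 65.2%), as did the lipid, inflammation and Wnt lists. The macrophage list rests on 3 sites. The part of cell composition in the difference between diets was not tested.

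The 5 signaling and metabolic lists are read against the same shares over all genes, 22.5% higher and 4.08% lower. Of 24 measured Wnt genes, 7 were higher in low-fat mice at an unadjusted p under 0.05 and 0 lower, with a median difference of 5.07 points. The ligands Wnt7b, at 68.1% ± 3.97 and 59.9% ± 6.01, and Wnt4, at 72.2% ± 2.47 and 65.0% ± 7.17, were among them, as was Tcf7l2, a transcription factor of the pathway, at 76.0% ± 6.57 and 61.3% ± 14. Ctnnb1, which encodes beta-catenin, was at 58.8% ± 4.15 and 54.1% ± 3.76 over 6 sites (unadjusted p = 0.0821 in limma, adjusted 0.238). Of 13 genes of adipokine, insulin and glucose signaling 2 were higher and 0 lower (median 2.06), Pik3cd and the kinase Akt1. Of 15 genes of lipid uptake, synthesis and breakdown 3 were higher and 0 lower (median 3.11), the nuclear receptor Ppard, the HDL receptor Scarb1 and apolipoprotein E. Of 9 inflammation and NF-kB genes 4 were higher and 0 lower (median 3.33), with Tnf at 77.5% ± 5.47 and 67.7% ± 10.4 and its receptor Tnfrsf1a at 74.4% ± 5.97 and 60.1% ± 14.8. Of 10 genes of DNA methylation and one-carbon enzymes 1 was higher and 0 lower (median 0.506), Dnmt3l, at 63.6% ± 4.45 and 51.0% ± 12.8 (SD, n = 10 and n = 4 throughout). Without replicate 1, the members with a limma adjusted p under 0.05 were 11 for Wnt, 6 for lipid genes, 3 for inflammation and 2 for DNA methylation and one-carbon enzymes, all higher in low-fat mice, and for adipokine, insulin and glucose signaling 2 higher and 1 lower, Foxo3 (32.3% higher and 4.01% lower over all genes).

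Among the 3 low-fat groups themselves few sites differed. In the limma F test among CON-LFD, DIO-LFD and DIO-VSG, 4 sites had an adjusted p under 0.05 (0.0061%), and 1910 had an unadjusted p under 0.05 (2.91%). None of the 20 named sites was among the latter. That is not a separate test, since they were chosen for separation and small p, which favours little spread among the low-fat mice. The site with the smallest p in this test was just upstream of the Ctnnb1 start, at 14.3%, 30.4% and 11.8% in the CON-LFD mice and at 0.00% in all 7 DIO-LFD and DIO-VSG mice, with 27.6%, 19.3%, 19.7% and 13.5% in DIO-HFD. Here the low-fat mice did not share a level, and CON-LFD lay with DIO-HFD. The low-fat mice as a whole were at 5.65% ± 10.3 (SD, n = 10) and DIO-HFD at 20.03% ± 5.78 (SD, n = 4).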

How the data were processed

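RRBS was measured in the contralateral mammary fat pad of 14 mice. The table the authors deposited gives levels as a fraction, methylated reads over all reads of a site in a mouse, without further normalization. As the methods and labels give it, reads were aligned to mm10 with Bismark, sorted with samtools and called with methylKit, sites of extreme coverage or low variability were removed, and 2 outlier mice, 1 CON-LFD and 1 DIO-LFD, were left out for poor sequencing quality. In the deposited table, 10151 of 75761 sites still varied by a standard deviation under 0.05 (as a fraction). Since it gives no coverage, depth is unknown, and neither counting intervals nor detection limits could be given.

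Mice were grouped by the labels and then by current diet. The other 65610 sites were tested, and a level b entered the fit as log2((b + 0.01)/(1 - b + 0.01)). Sites were fitted with limma 3.58.1 in R 4.3.3 (lmFit, eBayes without trend or robust), with current diet as a factor of 2 levels and Benjamini-Hochberg adjustment over all sites. Windows of 1000 bp with at least 3 sites, and genes (sites with a promoter, exon or intron flag or within 5000 bp of the transcript start of the nearest gene), were fitted as means of their sites. A flag can refer to another gene than the nearest one. The fit was tested on simulated data. Means per mouse were compared by two-sided exact permutation tests, in which the smaller tail was doubled, and distances between mice by an exact permutation test of pseudo-F, with SciPy 1.17.1, NumPy 2.4.6 and pandas 2.3.3 in Python 3.11.15. Figures were drawn with Matplotlib 3.10.9. Sequence and gene structure came from the RefSeq GRCm38 genome and GENCODE of the same build. For 12 listed sites the position is not that of a CpG cytosine, and these were kept.

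The sites named were, in each direction, the 10 with the smallest p among those at which the diets do not overlap, with 1 site per gene symbol, and likewise 5 windows, of which 1 is not reported here. From each gene list up to 4 measured members with the smallest p qualified, and not all are printed. Genes with 3 or more separating sites and the single genes Ogdh, Abcg8 and Ago2 were chosen after their values were seen. The groups, lists and rules were chosen with earlier results of these data known. Alternatives were the offset, the scale, the variance model, the group model, centring, the filter, the windows, the assignment to genes, a block for the replicate number, and fits without each mouse in turn. The replicates are separate mice, so p-values measure the spread between mice. Expression was not analysed here.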

Additional observations from a re-analysis of the deposited data

Results flagged for a closer look

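Single mice far from the others of their group were looked for in the mean level, the named sites and the named windows, in DIO-HFD, DIO-VSG and all low-fat mice together. Of 93 such groups 9 were singled out by Dixon's test, which chance does in about 1 of 20 groups. DIO-HFD replicate 1 was the highest in 3 of them, the mean level of all sites (66.2% against 57.2% to 57.6% in the other DIO-HFD mice), the Zcchc14 site (10.8% against 2.48% to 3.03%) and the Gm16104 site (38.7% against 21.9% to 24.2%). At the Nrsn1 site DIO-HFD replicate 2 was at 96.9% and the other 3 at 100%.

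In DIO-VSG, replicate 4 was the highest at the Gm42943 site, at 98.4%, and the lowest at the Gm23021 site, at 71.4% against 94.2% to 94.7%, and at the latter it was also far from the other low-fat mice. DIO-LFD replicate 2 was the lowest low-fat mouse at the Tnk2 site, at 84.6%, and DIO-LFD replicate 1 in the Rgs7 window, at 84.0% against 87.4% to 90.7%.

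At 4 sites the 3 low-fat groups differed among themselves by the limma F test. The adjusted p was 0.00289 at the Ctnnb1 site described above and 0.00732 at the Gm23036 site, where all 4 DIO-VSG mice were at 100% and CON-LFD and DIO-LFD were at 88.2% ± 1.73 and 87.2% ± 7.52. It was 0.0169 at the Mroh2b site, where all 3 DIO-LFD mice were at 100% with CON-LFD at 81.1% ± 8.46 and DIO-VSG at 87.7% ± 3.831. It was 0.0483 at the Fam110b site, where DIO-LFD was again at 100%, with CON-LFD at 86.5% ± 5.85 and DIO-VSG at 90.2% ± 3.06 (SD, n = 3 for CON-LFD and DIO-LFD, n = 4 for DIO-VSG). At each of these sites 1 or 2 groups had the same level, 0% or 100%, in every mouse.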

How the results depend on the processing

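The difference in mean level kept its direction and its side of the threshold in 6 alternatives of filter, sites or scale, and was 3.88 points, without a test, with the 3 low-fat groups weighted equally. With 1 mouse left out it was 3.166 to 6.17 points, and p rose to 0.105 (exact permutation test) without any one of DIO-HFD replicates 2 to 4. The test of the distances between diets kept an exact p of 0.0490 or less in all fits.

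Counts at single sites were less stable. Sites with an adjusted p under 0.05 numbered 0 with an offset of 0.1, with eBayes with trend and robust, with a standard deviation of at least 0.1 and with the replicate block, 27 on the level itself, and 0 to 21871 with 1 mouse left out (21871 without DIO-HFD replicate 1, at most 7 otherwise). Sites with an unadjusted p under 0.05 numbered 5842 with a standard deviation of at least 0.1 and 8381 to 28795 with 1 mouse left out. Sites without overlap numbered 450 to 14596, at most 731 when a mouse other than DIO-HFD replicate 1 was left out, and leaving out a mouse can only add such sites. Windows with an adjusted p under 0.05 numbered 1 after centring and 0 to 4263 with 1 mouse left out. Genes numbered 0 within 2000 bp of the start or centred, 4 on the level, and 0 to 3068 with 1 mouse left out. Sites that differed among the low-fat groups numbered 0 with the offset of 0.1 or on the level, and 3 to 28 with 1 mouse left out (28 without DIO-LFD replicate 2).

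Centred on each mouse's median, class differences turned negative: -5.09 points at promoter islands, -2.19 at other promoters, -3.17 at other islands, -0.618 in exons, -0.682 in introns, -1.83 elsewhere, and -4.74, -2.09 and -1.89 at levels of 20 to 40%, 40 to 60% and 80 to 100%. The class at 0 to 20% ranged from -0.611 to 0.580 with 1 mouse left out and turned positive without CON-LFD replicate 3 (0.0739) and without DIO-HFD replicates 1 (0.211) or 3 (0.580). The labels do not tie a replicate number to a shared litter or day, and the numbers were not taken as pairs: over 10 pairs of the same number the correlation of deviations was -0.0804 to 0.202, and 4 pairs were over 0.1, against 2 of 30 pairs of different numbers (medians 0.0383 and -0.0265). With the replicate block the sites with an unadjusted p under 0.05 numbered 16378. Gene list counts without DIO-HFD replicate 1 were added after seeing the data.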
